A study of Mus musculus with 16 samples.

Results

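Iron and heme transport genes were examined in primary mouse astrocytes that were wild-type (WT) or lacked the mitochondrial NOD-like receptor NLRX1 (*Nlrx1*-/-). The set was named by symbol and has 10 genes, namely *Tfrc*, *Slc11a2*, *Slc39a14*, *Slc40a1*, *Flvcr1*, *Fth1*, *Ftl1*, *Hamp*, *Ireb2* and *Aco1*, of which 9 are among the 16707 genes of the deposited log2 CPM table. *Hamp*, which encodes hepcidin, is not in that table and had 0 reads in each of the 16 libraries. *Flvcr1* drew attention because its response differed between the genotypes in these same libraries, so its values are given as a description without a test, and the counts of genes past a threshold cover the other 8.

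Astrocytes were selected from the brains of P6 pups of WT and *Nlrx1*-/- mice, both C57BL/6J, with beads against the surface antigen ACSA-2. They were cultured without serum in medium with heparin-binding EGF and N-acetyl cysteine, an antioxidant that all groups shared. Each of 4 WT and 4 *Nlrx1*-/- litters gave one well with vehicle (water) and one well with bacterial lipopolysaccharide (LPS, 500 ng/mL) plus the cytokine IFNγ (10 ng/mL) for 24 h, so that 4 libraries stand in each of 4 conditions. The pup age and the water are those of the paper's methods. Its results text gives younger pups, and a figure legend gives phosphate buffered saline as vehicle. A litter is a set of pups and is the replicate, and the loss of *Nlrx1* is not limited to astrocytes. Polyadenylated RNA was sequenced without keeping strand, with 27259420 to 43752903 reads assigned to transcripts per library.

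*Nlrx1* itself lay between 4.08 and 4.44 log2 CPM in the 8 WT libraries and between 1.09 and 2.96 in the 8 *Nlrx1*-/- libraries. All 10 astrocyte markers on the list were in the table. They summed to 6868 to 10848 CPM with vehicle and 6319 to 9453 with LPS + IFNγ in WT, and to 5386 to 8416 and 5391 to 7265 in *Nlrx1*-/-. Of 9 microglia and macrophage markers, 8, among them *Aif1*, *Cx3cr1* and *Csf1r*, were absent from it and had 0 to 20 reads per library, and the other, *P2ry12*, had 2 to 56. All 6 oligodendrocyte markers were present, at 679 to 1024 CPM in WT with vehicle, 422 to 804 in WT with LPS + IFNγ, 287 to 901 in *Nlrx1*-/- with vehicle and 219 to 508 in *Nlrx1*-/- with LPS + IFNγ. Both oligodendrocyte precursor markers summed to 171 to 184 CPM with vehicle and 82.3 to 106 with LPS + IFNγ in WT, and to 116 to 159 and 53.3 to 74.5 in *Nlrx1*-/-. The 5 neuron markers present, of 6, summed to 20.2 to 23.4 and 57.5 to 89.6 CPM in WT and to 20.8 to 26.8 and 63.0 to 81.4 in *Nlrx1*-/-. That rise was mainly in *Tubb3*, from a mean of 10.1 to 65.8 CPM in WT and from 8.40 to 62.1 in *Nlrx1*-/-. The mean of *Snap25* also rose, while those of *Rbfox3*, *Syt1* and *Gad1* fell in both genotypes, so the sum is no measure of neuronal RNA. The 2 ependymal markers present, of 3, summed to 166 to 227 CPM with vehicle and 117 to 164 with LPS + IFNγ in WT, and to 100 to 182 and 70.5 to 114 in *Nlrx1*-/-. The oligodendrocyte, precursor, neuron and ependymal sums moved with the treatment in both genotypes. The astrocyte sum hides members that moved apart. With LPS + IFNγ the means of *Gfap*, *Aqp4*, *Slc1a2*, *Gja1*, *Atp1b2* and *S100b* fell in both genotypes. Those of *Aldh1l1* and *Slc1a3* rose in both, and those of *Sox9* and *Aldoc* rose in WT and fell in *Nlrx1*-/-. *Gja1* went from 713 to 374 CPM in WT and from 381 to 149 in *Nlrx1*-/-, and *Slc1a3* from 2238 to 2647 and from 2330 to 2580. The part of the markers in the responses was not tested. Fewer cells of a type and less RNA per cell cannot be told apart in such bulk libraries.

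Cells take up iron bound to transferrin through the transferrin receptor, move it across membranes with divalent metal transporters, store it in ferritin and release it through ferroportin. The mRNAs for several of these proteins carry an iron-responsive element (IRE), a short hairpin with a CAGTG loop that the iron regulatory proteins bind when iron is scarce. Binding at the 5′ end blocks translation, as for ferritin and ferroportin, and binding at the 3′ end protects the mRNA from decay, as for the transferrin receptor. In the brain, astrocytes take part in handing iron from the blood vessels to other cells, and inflammatory signals are known to change how they do so.

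The IREs are shown because they are the sequence feature that most of the storage and transport genes share, and they divide the genes by the end of the mRNA that carries them. They were read from GENCODE M39 transcripts and the GRCm39 genome as the letters CNNNNNCAGTGN on the transcript strand (the last base not G), with the 5 bases before the loop pairing with the 5 bases after it (G-T pairs allowed). Such a match in all 5 pairs was found in 262 of 21642 protein-coding genes (1.21%), and a match in at least 4 pairs in 10.0%. The 6 loop bases are in capitals, and each line runs 5′ to 3′ on the gene's strand.
*Fth1*, 5′ UTR, chr19:9960096-9960125, plus strand: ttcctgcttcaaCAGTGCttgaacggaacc
*Ftl1*, 5′ UTR, chr7:45109202-45109231, minus strand: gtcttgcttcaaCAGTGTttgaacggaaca
*Slc40a1*, 5′ UTR, chr1:45964624-45964653, minus strand: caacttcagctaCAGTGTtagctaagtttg
*Slc11a2*, 3′ UTR, chr15:100293033-100293062, minus strand: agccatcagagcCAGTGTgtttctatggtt
*Tfrc*, 3′ UTR, chr16:32450037-32450066, plus strand: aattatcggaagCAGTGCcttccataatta
*Tfrc*, 3′ UTR, chr16:32450416-32450445, plus strand: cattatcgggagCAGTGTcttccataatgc
*Tfrc*, 3′ UTR, chr16:32450481-32450510, plus strand: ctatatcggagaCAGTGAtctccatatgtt
*Tfrc*, 3′ UTR, chr16:32450528-32450557, plus strand: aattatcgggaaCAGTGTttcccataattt
The element of *Slc11a2* pairs at 4 of the 5 positions and the other 7 elements at all 5. In the transcripts of *Flvcr1*, *Slc39a14*, *Hamp*, *Ireb2* and *Aco1* these letters were not found with 4 or more pairs, which says nothing of other elements they may have.

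LPS + IFNγ moved most of these genes in both genotypes. In WT astrocytes 4 of the 8 tested genes rose (*Tfrc*, *Slc11a2*, *Slc39a14*, *Aco1*), 2 fell (*Slc40a1*, *Ireb2*) and the ferritin genes *Fth1* and *Ftl1* did not pass the threshold, and the same genes stood in the same classes in *Nlrx1*-/- astrocytes. A gene passed when its adjusted p was below 0.05 in edgeR's quasi-likelihood test over all 16066 genes tested, with litters as blocks. Of all genes tested, 43.9% passed in WT (23.7% higher and 20.2% lower) and 49.4% in *Nlrx1*-/- (25.3% higher and 24.2% lower), so that a gene that passes is common in these libraries. Vehicle and LPS + IFNγ libraries did not overlap for 5 of the 8 genes in WT, beside 37.8% of the 16707 genes, and for 3 of the 8 (*Slc40a1*, *Slc11a2* and *Ireb2*) in WT and in *Nlrx1*-/- alike, beside 23.0%. By limma on the deposited log2 CPM, which hold all reads of *Aco1*, the median size of the change, regardless of its direction, was 0.27 for the 8 genes and 0.32 over all genes in WT, and 0.32 and 0.35 in *Nlrx1*-/-. By edgeR, where *Aco1* has only part of its reads, the medians for the 8 were 0.43 and 0.37, on the other side of those over all genes (0.32 and 0.35).

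**Figure D1:**
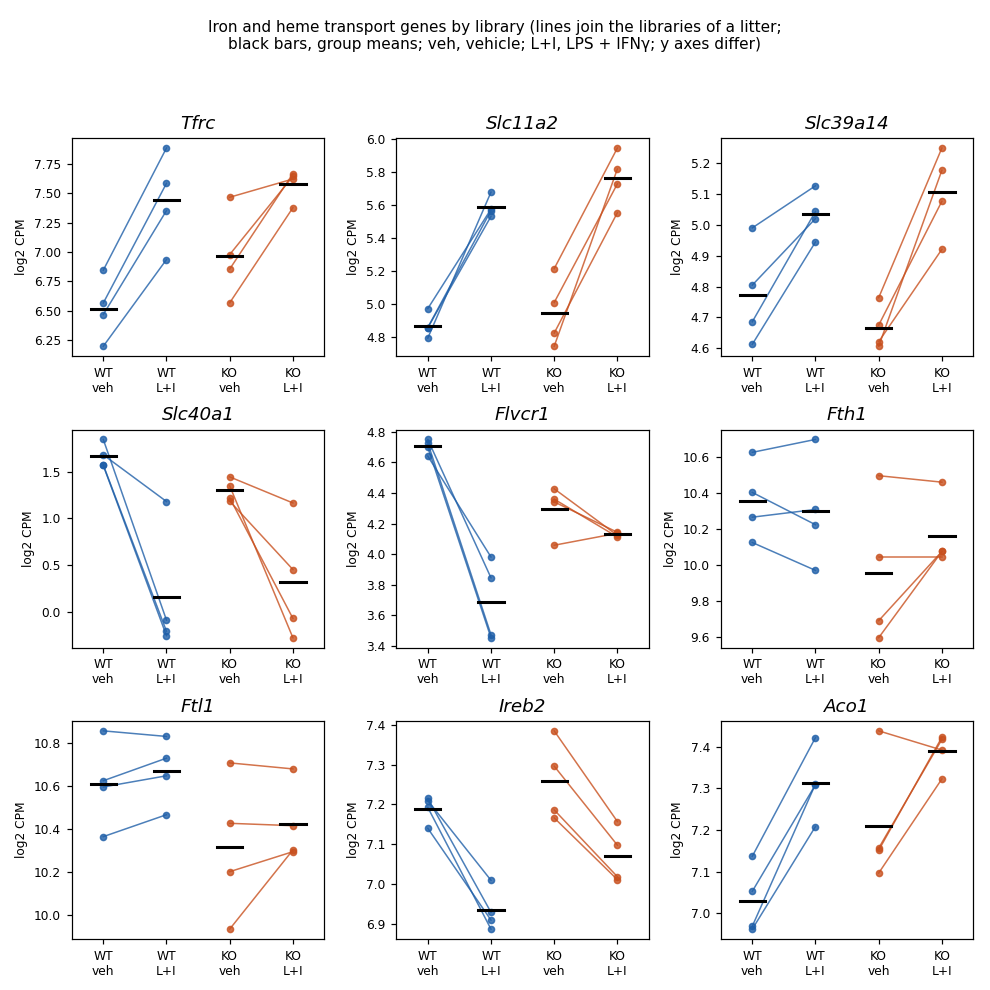
Log2 CPM of the 9 genes in each of the 16 libraries (y axes differ between panels), by genotype (blue, WT; orange, *Nlrx1*-/-, marked KO) and treatment, where lines join the vehicle and LPS + IFNγ wells of a litter and black bars are group means. Lines for *Tfrc*, *Slc11a2* and *Slc39a14* go up and those for *Slc40a1* and *Ireb2* go down in all 8 litters, while *Flvcr1* falls by 0.66 to 1.25 in the WT litters and spans -0.30 to 0.08 in the *Nlrx1*-/- litters.

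Among the uptake genes, *Tfrc* encodes the transferrin receptor and lies at chr16:32427556-32451612 (GRCm39). In WT with vehicle it stood at 6.84, 6.47, 6.56 and 6.20 log2 CPM in litters 1 to 4, and with LPS + IFNγ at 7.89, 7.35, 7.58 and 6.94. In *Nlrx1*-/- astrocytes the values were 6.85, 7.47, 6.98 and 6.57 with vehicle and 7.67, 7.62, 7.64 and 7.38 with LPS + IFNγ. Every litter went up, and the vehicle and LPS + IFNγ libraries did not overlap in WT but did in *Nlrx1*-/-, where litter 2 began high and moved by only 0.16. By edgeR *Tfrc* rose by 0.90 log2 units in WT (SE 0.10, 1.87-fold, adjusted p = 5.6e-05) and by 0.60 in *Nlrx1*-/- (SE 0.10, 1.52-fold, adjusted p = 7.2e-04).

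*Slc11a2* encodes the divalent metal transporter DMT1, which carries iron out of endosomes (chr15:100285776-100322953). Its levels with vehicle were 4.79, 4.86, 4.97 and 4.86 log2 CPM in the WT litters and 4.82, 5.22, 5.01 and 4.74 in the *Nlrx1*-/- litters. With LPS + IFNγ they were 5.68, 5.57, 5.58 and 5.53 in WT and 5.56, 5.95, 5.73 and 5.82 in *Nlrx1*-/-. The treated libraries lay above all vehicle libraries in each genotype. The rise by edgeR was 0.71 log2 units in WT (SE 0.07, 1.63-fold, adjusted p = 2.7e-05) and 0.80 in *Nlrx1*-/- (SE 0.07, 1.74-fold, adjusted p = 9.3e-06).

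DMT1 mRNAs end in alternative 3′ exons, and not all of them hold the IRE printed above. Among coding *Slc11a2* transcripts of GENCODE M39 above a length cutoff, 8 with the element were 4280 to 5328 bases long and 7 without it were 2899 to 3609 bases long. Shorter transcripts were left out of this comparison. The element was found in 9 coding transcripts in all, so the split by length does not hold for all that carry it. The deposited transcripts have 4 forms of 4252 to 4373 bases and 7 of 2886 to 3387 bases, and the share of *Slc11a2* reads assigned to forms of at least 4000 bases was followed as a stand-in, a measure chosen after the data were seen and with the deposited accessions not matched to sequence. That share was 69.4%, 68.6%, 73.7% and 72.7% in the WT litters with vehicle and 76.5%, 80.8%, 78.9% and 76.0% with LPS + IFNγ. In the *Nlrx1*-/- litters it was 70.0%, 65.5%, 72.0% and 64.9% with vehicle and 73.5%, 73.6%, 81.3% and 67.9% with LPS + IFNγ. It was higher with LPS + IFNγ in 8 of 8 litters, by 6.47 percentage points on average (SD 3.30, n = 8, exact sign-flip test over litters, two-sided p = 0.0078, the smallest that 8 litters allow, 0.016 after Benjamini-Hochberg adjustment over the 2 measures tested this way). Over 4 litters each, the mean increase was 6.96 points in WT (SD 3.80) and 5.97 points in *Nlrx1*-/- (SD 3.22), and these did not differ beyond their spread (exact permutation p = 0.77, smallest possible 0.029, adjusted p = 0.77).

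*Slc39a14* encodes ZIP14, a carrier of zinc and of iron that is not bound to transferrin (chr14:70540678-70588914). It ranged from 4.61 to 4.99 log2 CPM with vehicle and from 4.94 to 5.13 with LPS + IFNγ in WT, and from 4.61 to 4.76 and from 4.92 to 5.25 in *Nlrx1*-/-. The groups overlapped slightly in WT and did not in *Nlrx1*-/-. The edgeR rise was 0.25 log2 units in WT (SE 0.07, adjusted p = 0.013) and 0.42 in *Nlrx1*-/- (SE 0.07, adjusted p = 4.6e-04). In WT the call rested on litters 1 and 3, since the adjusted p by edgeR was 0.060 without either of them (rises of 0.22 in both fits).

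Among the exporters, *Slc40a1* encodes ferroportin, the known exporter of iron from cells (chr1:45947211-45965683). It was a low gene here, with 22 to 169 reads per library, so counting error weighs more on it than on the others. With vehicle it stood at 1.57, 1.57, 1.85 and 1.68 log2 CPM in WT and 1.22, 1.19, 1.35 and 1.44 in *Nlrx1*-/-. With LPS + IFNγ it stood at -0.25, -0.21, -0.09 and 1.18 in WT and at -0.07, 0.45, -0.27 and 1.17 in *Nlrx1*-/-. Every litter went down, but litter 4 of WT by only 0.50 and litter 4 of *Nlrx1*-/- by only 0.28, and the design does not pair these litters. By edgeR *Slc40a1* fell by 1.55 log2 units in WT (SE 0.33, 2.92-fold, adjusted p = 0.0034) and by 1.01 in *Nlrx1*-/- (SE 0.33, 2.02-fold, adjusted p = 0.025). The *Nlrx1*-/- call did not hold without litter 1 of that genotype (a fall of 0.90, adjusted p = 0.089 by edgeR), without litter 3 (0.80, 0.096) or without litters as blocks (0.92, 0.0505).

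*Flvcr1* encodes a transporter of the plasma membrane known as a heme exporter and, more recently, as a carrier of choline (chr1:190733367-190758440). It stood at 4.64, 4.70, 4.75 and 4.73 log2 CPM in the WT litters with vehicle and at 3.98, 3.45, 3.85 and 3.47 with LPS + IFNγ. In *Nlrx1*-/- it stood at 4.34, 4.43, 4.36 and 4.06 with vehicle and at 4.14, 4.12, 4.11 and 4.14 with LPS + IFNγ. The WT litters thus ran from the highest to the lowest levels of the gene, and the *Nlrx1*-/- litters lay between those extremes in both conditions. The fitted responses were -1.03 log2 units (SE 0.11, a 2.04-fold fall) in WT and -0.18 (SE 0.11) in *Nlrx1*-/-, a difference of 0.84 (SE 0.15), and *Nlrx1*-/- astrocytes were 0.41 lower than WT with vehicle (SE 0.11) and 0.41 higher with LPS + IFNγ (SE 0.11). *Flvcr1* was chosen for this pattern, so these are descriptive values.

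Most *Flvcr1* reads, a median of 91.1% and 59.4% to 97.4% across libraries, were assigned to its 4087-base transcript. Of 13500 other genes with a mean log2 CPM of at least 0, those whose levels over the 16 libraries were most like *Flvcr1* were *Lpl* (Pearson r = 0.89), *Adamts9* (0.89), *Atmin* (0.88), *Cab39* (0.88) and *Sertad4* (0.87). These libraries share litters and treatments, so the r values describe them and carry no test. Their mean changes with LPS + IFNγ over 4 litters ran from -1.67 log2 CPM for *Sertad4* (SD 0.31) to -0.29 for *Atmin* (SD 0.05) in WT, and from -0.89 for *Sertad4* (SD 0.44) to -0.11 for *Cab39* (SD 0.09) in *Nlrx1*-/-. *Ireb2* was the member most like *Flvcr1* (r = 0.73), and *Slc11a2* the most opposed (r = -0.63).

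**Figure D2:**
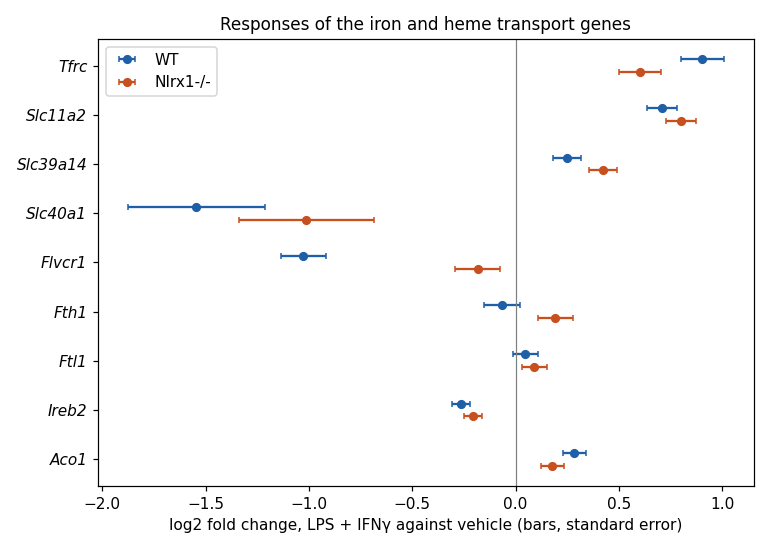
Log2 fold change of each gene with LPS + IFNγ against vehicle in WT (blue) and *Nlrx1*-/- astrocytes (orange), with points for the estimate and bars for 1 standard error, from edgeR (*Aco1* from limma on the deposited log2 CPM). The estimates run from -1.55 for *Slc40a1* in WT to 0.90 for *Tfrc* in WT, and those of the ferritin genes lie between -0.07 (*Fth1* in WT) and 0.19 (*Fth1* in *Nlrx1*-/-).

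The ferritin genes *Fth1*, for the heavy chain that oxidizes iron (chr19:9957911-9962462), and *Ftl1*, for the light chain (chr7:45107367-45109308), were by far the most abundant of the set. Both have near-identical copies elsewhere in the genome, among which reads can be split. *Fth1* with vehicle stood at 10.1, 10.3, 10.4 and 10.6 log2 CPM in WT and at 10.0, 9.60, 10.5 and 9.69 in *Nlrx1*-/-. With LPS + IFNγ it stood at 9.97, 10.3, 10.2 and 10.7 in WT and at 10.0, 10.1, 10.5 and 10.1 in *Nlrx1*-/-. In each genotype 2 litters went up and 2 went down, and the treatment groups overlapped throughout. The edgeR change was -0.07 log2 units in WT (SE 0.09, adjusted p = 0.56) and 0.19 in *Nlrx1*-/- (SE 0.09, adjusted p = 0.086). The *Nlrx1*-/- change passed once litter 1 (0.27, adjusted p = 0.042 by edgeR) or litter 3 (0.26, adjusted p = 0.036) of that genotype was left out.

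Levels of *Fth1* spread more widely over the litters of a genotype than its mean change with treatment. Among the *Nlrx1*-/- vehicle libraries, the order of *Fth1* (litters 3, 1, 4 and 2, from high to low) was also the order of the summed astrocyte markers, at 8416, 7076, 5997 and 5386 CPM, and of the summed oligodendrocyte markers, at 901, 632, 426 and 287 CPM. In the other 3 groups the orders differed, although the library with the highest *Fth1* (litter 4 of WT in both conditions, litter 3 of treated *Nlrx1*-/-) was also the one with the highest astrocyte markers. The part of these markers in the spread of *Fth1* was not tested. *Ftl1* ranged from 10.4 to 10.9 log2 CPM in WT and from 9.94 to 10.7 in *Nlrx1*-/-, with edgeR changes of 0.05 (SE 0.06, adjusted p = 0.57) and 0.09 (SE 0.06, adjusted p = 0.25).

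Because ferritin shells mix both chains, the ratio of the chains' mRNAs was also followed within each library, as the log2 of *Fth1* TPM over *Ftl1* TPM. It lay between -0.42 and -0.04 in all 16 libraries, that is, slightly more *Ftl1* than *Fth1* per length in each. Its mean change with LPS + IFNγ was -0.01 (SD 0.19, n = 8 litters, 4 up and 4 down, exact sign-flip test, two-sided p = 0.95, 0.95 after adjustment). In WT it changed by -0.26, -0.01, -0.29 and 0.10 and in *Nlrx1*-/- by 0.01, 0.11, -0.01 and 0.29. The genotypes' changes differed by 0.22, which was within their spread (exact permutation p = 0.11, smallest possible 0.029, adjusted p = 0.23).

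**Figure D3:**
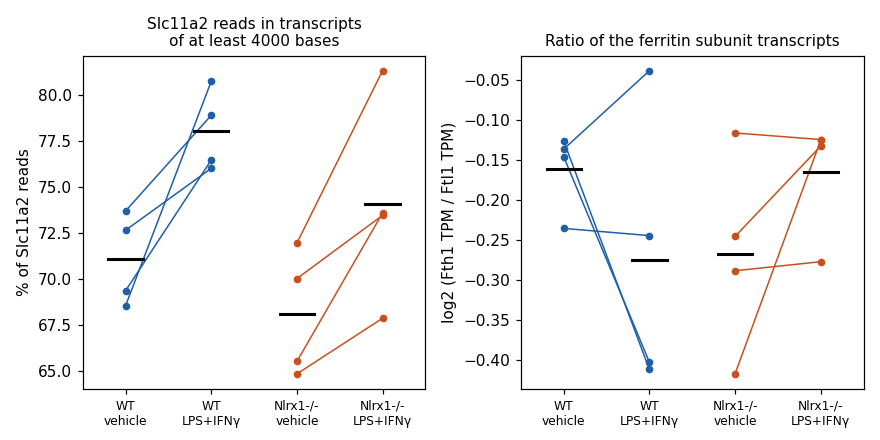
Left, percentage of *Slc11a2* reads assigned to transcripts of at least 4000 bases; right, log2 ratio of *Fth1* TPM to *Ftl1* TPM. Points are libraries, lines join the wells of a litter (blue, WT; orange, *Nlrx1*-/-) and black bars are group means. The share goes up in 8 of 8 litters, by 3.02 to 12.2 percentage points, and the ratio goes up in 4 litters and down in 4.

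The regulators *Ireb2* (chr9:54770970-54820011) and *Aco1* (chr4:40142998-40199010) encode the iron regulatory proteins IRP2 and IRP1. IRP1 doubles as the cytosolic aconitase when it holds an iron-sulfur cluster, and IRP2 is removed when iron is plentiful. The genes moved in opposite directions. *Ireb2* stood at 7.14 to 7.22 log2 CPM with vehicle and 6.89 to 7.01 with LPS + IFNγ in WT, and at 7.17 to 7.39 and 7.01 to 7.16 in *Nlrx1*-/-, with no overlap between treatments in either genotype. It fell in all 8 litters, by 0.27 log2 units in WT (edgeR, SE 0.04, adjusted p = 7.0e-04) and by 0.21 in *Nlrx1*-/- (SE 0.04, adjusted p = 0.0029). These were small changes with a narrow spread.

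For *Aco1* the transcript that could be paired with the gene held 21.4% to 33.4% of the reads behind its deposited CPM, so its values are from the deposited log2 CPM and its test is limma on those values. It stood at 6.96 to 7.14 log2 CPM with vehicle and 7.21 to 7.42 with LPS + IFNγ in WT, and at 7.10 to 7.44 and 7.32 to 7.42 in *Nlrx1*-/-. The rise was 0.28 log2 units in WT (SE 0.06, limma adjusted p = 0.0014) and 0.18 in *Nlrx1*-/- (SE 0.06, limma adjusted p = 0.018). Litter 2 of *Nlrx1*-/- stood apart with -0.05, against 0.23 to 0.27 in the other litters of that genotype. Without that litter the *Nlrx1*-/- rise was 0.25 (limma adjusted p = 0.0012), whereas it no longer passed without litter 1 (0.15, 0.092), litter 3 (0.15, 0.070) or litter 4 (0.16, 0.062). On the partial counts, edgeR gave 0.59 in WT and 0.32 in *Nlrx1*-/-, and limma on the deposited values passed 46.7% of 16707 genes in WT and 52.1% in *Nlrx1*-/-.

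Whether the loss of *Nlrx1* changed these genes was addressed by comparing the responses and then the levels. The litter responses of the genotypes overlapped for each of the 8 tested genes, where 8.31% of the 16707 genes had responses that did not overlap. For the difference between the responses, 0 of the 8 tested genes and 0 of the 16066 genes passed by edgeR (0% of all tested). An unadjusted p below 0.05 was reached by 2469 genes and by 1 of the 8, *Aco1* on its partial counts (-0.27). DESeq2 called 0 of the 8 (2.34% of the genes with an adjusted p) and limma 0 of the 8 (0%). In each, 2 had an unadjusted p below 0.05 (*Fth1* and *Aco1* by DESeq2, *Tfrc* and *Fth1* by limma). By edgeR the differences (*Nlrx1*-/- minus WT) were -0.30 for *Tfrc* (SE 0.15, adjusted p = 0.35), 0.26 for *Fth1* (SE 0.12, adjusted p = 0.34), 0.18 for *Slc39a14* (SE 0.10, adjusted p = 0.41) and 0.53 for *Slc40a1* (SE 0.46, adjusted p = 0.62). For *Slc11a2*, *Ftl1* and *Ireb2* they lay between 0.04 and 0.09, and for *Aco1* limma gave -0.10 (SE 0.08, adjusted p = 0.54). The standard error for *Slc40a1* is nearly as large as its difference, so a difference of that size was not detectable at its depth and spread.

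With vehicle, 0 of the 8 genes differed between the genotypes by edgeR, and 0 of the 16066 genes passed (0%). An unadjusted p below 0.05 was reached by 3152 genes and by 2 of the 8, *Tfrc* and, on its partial counts, *Aco1*. DESeq2 (5.07% of the genes with an adjusted p) and limma (0.00599%) also called 0 of the 8. Each had 3 at an unadjusted p below 0.05 (*Tfrc*, *Fth1* and *Aco1*). Apart from *Aco1*, the estimates by edgeR were largest for *Tfrc* (0.45 higher in *Nlrx1*-/-, SE 0.21, edgeR adjusted p = 0.25), *Slc40a1* (-0.39, SE 0.35, adjusted p = 0.56), *Fth1* (-0.38, SE 0.19, adjusted p = 0.28) and *Ftl1* (-0.29, SE 0.15, adjusted p = 0.29). For *Aco1*, limma gave 0.18 (SE 0.07, adjusted p = 0.18), and edgeR 0.29 on its partial counts. Of the 8, *Slc40a1* alone had vehicle levels that did not overlap between the genotypes, as was true of 9.45% of the 16707 genes. The fit takes a shared spread from all 4 conditions, so its standard errors are not those of the vehicle libraries alone. *Slc40a1* had an SD of 0.13 log2 CPM in WT and 0.12 in *Nlrx1*-/- with vehicle, and of 0.69 and 0.64 with LPS + IFNγ. *Fth1* passed once litter 3 of *Nlrx1*-/- was left out (-0.58, edgeR adjusted p = 0.042), in a fit in which 1311 genes passed.

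With LPS + IFNγ, 0 of the 8 genes differed between the genotypes by edgeR, where 808 of the 16066 genes (5.03%) passed. None of the 8 reached an unadjusted p below 0.05 by edgeR, and DESeq2 (16.5% of those with an adjusted p) and limma (8.80%) called 0 of the 8, each with 1 at that level. The estimates ran from -0.26 for *Ftl1* (SE 0.15, adjusted p = 0.26) to 0.17 for *Slc11a2* (SE 0.10, adjusted p = 0.28). *Ireb2* was 0.12 higher in *Nlrx1*-/- (SE 0.06, adjusted p = 0.19), and it was the 1 gene of the 8 whose levels did not overlap between the genotypes, as was true of 13.3% of the 16707 genes.

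Levels can be compared between genes only per length, which TPM allows. In WT with vehicle the order was *Ftl1* (4412 TPM, SD 583, n = 4), *Fth1* (3950, SD 573), *Ireb2* (62.2, SD 1.68), *Tfrc* (45.5, SD 8.95), *Flvcr1* (16.6, SD 0.49), *Slc11a2* (16.02, SD 0.86), *Aco1* (14.9, SD 1.40), *Slc39a14* (11.1, SD 1.20) and *Slc40a1* (2.20, SD 0.21), with *Hamp* at 0. *Aco1* is understated because part of its transcripts were not paired, so its place in the order is not known. With *Aco1* left aside, the neighbours *Ftl1* and *Fth1*, and *Flvcr1* and *Slc11a2*, overlapped in their libraries, while the other neighbours did not. Ferritin mRNAs thus stood far above those for uptake, and ferroportin was the lowest detected gene.

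The order changed with treatment. In WT with LPS + IFNγ *Tfrc* (75.1 TPM, SD 22.7) stood above *Ireb2* (44.7, SD 1.44), and *Flvcr1* (7.13, SD 1.46) stood below *Slc11a2* (22.7, SD 1.52) and *Slc39a14* (11.4, SD 0.78). In *Nlrx1*-/- with vehicle *Ireb2* (62.6, SD 3.90) and *Tfrc* (59.7, SD 16.03) overlapped, and *Flvcr1* (12.01, SD 1.29) already stood below *Slc11a2* (16.3, SD 2.23). In *Nlrx1*-/- with LPS + IFNγ the order of the genes, *Aco1* aside, was that of treated WT. Relative to vehicle, log2 TPM of the median gene changed by -0.22 in WT and -0.19 in *Nlrx1*-/-, against 0.00 and -0.01 on the log2 CPM scale, so TPM was used for the order within a condition and not for the responses.

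**Figure D4:**
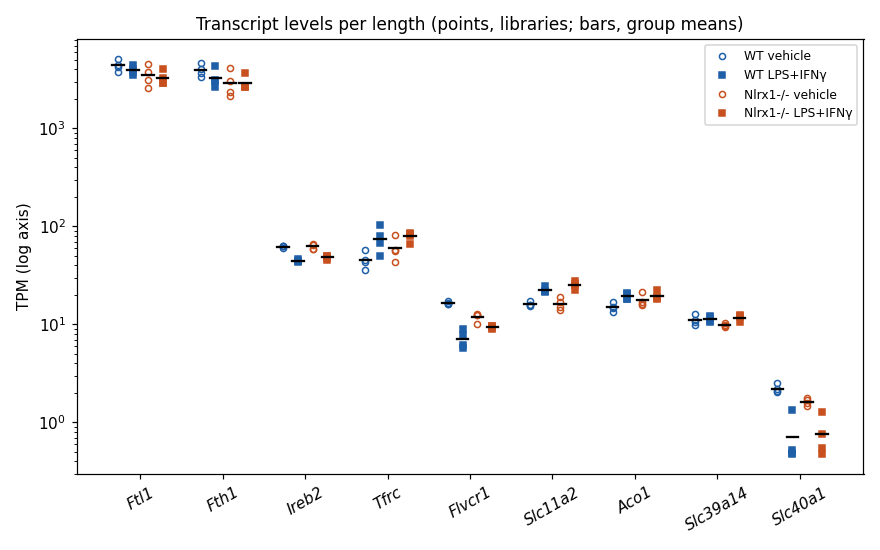
TPM on a log axis for the 9 detected genes in each library (open circles, vehicle; filled squares, LPS + IFNγ; blue, WT; orange, *Nlrx1*-/-), with black bars for group means. The ferritin genes stand at 2929 to 4412 TPM on average, and *Slc40a1* at 0.71 to 2.20. The values of *Aco1* are understated, since part of its transcripts were not paired.

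A wider list of 71 genes of iron and heme handling, other than those above, was followed in the same fits, and 62 could be tested. In WT 20 rose and 14 fell with LPS + IFNγ (54.8% of the 62), and in *Nlrx1*-/- 28 rose and 15 fell (69.4%), beside 43.9% and 49.4% of all genes. For the difference between the responses, and between the genotypes with vehicle, 0 of the 62 passed by edgeR.

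In the group for uptake and reduction of iron, 3 of 11 tested genes rose and 3 fell in WT, and 5 rose and 4 fell in *Nlrx1*-/-. *Lcn2*, which encodes lipocalin 2, a binder of iron-laden siderophores, had 0 to 10 reads per vehicle library and 1074 to 5375 reads per treated library. *Steap4*, a metalloreductase, went from a mean of 1.83 to 5.02 log2 CPM in WT (edgeR 3.20, SE 0.27, adjusted p = 6.3e-06) and from 1.27 to 6.26 in *Nlrx1*-/- (4.99, SE 0.29, adjusted p = 3.5e-07). *Scara5*, a ferritin receptor, went from 1.34 to -1.76 log2 CPM in WT and from 0.66 to -1.31 in *Nlrx1*-/- (mean falls of 3.10 and 1.97 over 4 litters, down in 8 of 8). Its edgeR test (adjusted p = 0.028 and 0.016) rests on counts that miss its reads in litter 4 of WT and in treated litters 1 and 2 of *Nlrx1*-/-, and no fold change is taken from it.

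Of the ferroxidases that assist export, *Cp* (ceruloplasmin) rose by 1.34 log2 units in WT (SE 0.11, edgeR adjusted p = 4.5e-06) and by 1.75 in *Nlrx1*-/- (SE 0.11, adjusted p = 5.5e-07), and *Heph* (hephaestin) fell by 0.58 (SE 0.05, adjusted p = 8.2e-06) and by 0.79 (SE 0.05, adjusted p = 8.0e-07). The genes of iron export thus went apart, with *Cp* up and *Heph* and *Slc40a1* down. Of the mitochondrial iron importers, *Slc25a28* (mitoferrin 2) rose in both genotypes, by 0.81 in WT (SE 0.09, adjusted p = 5.4e-05) and 0.75 in *Nlrx1*-/- (SE 0.09, adjusted p = 6.9e-05). *Slc25a37* (mitoferrin 1) rose in *Nlrx1*-/- by 0.49 (SE 0.08, edgeR adjusted p = 4.3e-04), with -0.07 in WT (SE 0.08, adjusted p = 0.52), and the difference between these responses did not pass (adjusted p = 0.22).

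In the storage and chaperone group, the poly(C)-binding protein *Pcbp1*, which delivers iron to ferritin, rose by 0.18 in WT (SE 0.05, edgeR adjusted p = 0.013) and by 0.20 in *Nlrx1*-/- (SE 0.05, adjusted p = 0.0058). *Ncoa4*, the receptor that takes ferritin to the lysosome, fell by 0.15 in WT (SE 0.05, edgeR adjusted p = 0.033), with -0.03 in *Nlrx1*-/- (SE 0.05, adjusted p = 0.64). Among 6 tested regulators 3 fell and 0 rose in each genotype, namely *Bmp6*, an inducer of hepcidin (-2.15 in WT, SE 0.35, edgeR adjusted p = 6.1e-04, and -1.15 in *Nlrx1*-/-, SE 0.38, adjusted p = 0.029), *Epas1* and *Bach1*.

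The heme genes were divided. Of 7 tested genes of heme synthesis, 2 rose and 2 fell in WT and 2 rose and 3 fell in *Nlrx1*-/-. *Ppox*, protoporphyrinogen oxidase, fell by 0.29 in WT (SE 0.10, edgeR adjusted p = 0.033) and by 0.50 in *Nlrx1*-/- (SE 0.10, adjusted p = 0.0016), and *Urod* fell and *Alad* rose in both genotypes. Of 8 tested genes of heme transport, 2 rose and 2 fell in WT and 3 rose and 2 fell in *Nlrx1*-/-. *Flvcr2*, the closest relative of *Flvcr1*, fell by 0.91 in WT (SE 0.24, adjusted p = 0.0099) and by 0.66 in *Nlrx1*-/- (SE 0.24, adjusted p = 0.040), *Slc46a1* fell and *Abcb6* rose in both.

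Of 4 genes of heme breakdown, 1 rose in WT and 3 in *Nlrx1*-/-. *Hmox1*, the inducible heme oxygenase, stood at 5.94, 6.28, 6.33 and 6.56 log2 CPM with vehicle and 6.30, 6.58, 6.32 and 6.72 with LPS + IFNγ in WT. In *Nlrx1*-/- it stood at 6.30, 5.84, 6.55 and 5.78 with vehicle and at 6.96, 7.74, 6.85 and 7.63 with LPS + IFNγ. It rose in *Nlrx1*-/- by 1.16 (SE 0.23, edgeR adjusted p = 0.0019), with 0.19 in WT (SE 0.23, adjusted p = 0.54), and the difference between the responses did not pass (adjusted p = 0.23). *Blvrb*, a biliverdin reductase, rose in both genotypes, by 0.70 and 0.46 (SE 0.11 each, adjusted p = 5.8e-04 and 0.0064), and *Hmox2* in *Nlrx1*-/- by 0.16 (SE 0.06, adjusted p = 0.047). Of 19 genes of iron-sulfur cluster assembly, 9 rose and 2 fell in WT and 11 rose and 2 fell in *Nlrx1*-/-, led by *Bola3*, *Nubp1* and *Cisd1* (0.92, 0.86 and 0.60 in WT).

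Some of the calls named from the list were lost with 1 litter left out. When each of the 8 litters was left out in turn, the rise of *Hmox2* in *Nlrx1*-/- passed by edgeR in 1 of the 8 fits (0.12 to 0.20), the fall of *Flvcr2* in *Nlrx1*-/- in 2 (-0.84 to -0.53) and the rise of *Alad* in *Nlrx1*-/- in 3 (0.17 to 0.23). The fall of *Ncoa4* in WT passed in 4 fits, and those of *Scara5*, *Urod* and *Ppox* in WT and of *Bmp6* in *Nlrx1*-/- in 5. The WT changes of *Slc46a1* and *Abcb6* and the rise of *Steap1* in *Nlrx1*-/- (1.22) passed in 6. The other responses called for genes named here passed in 7 or 8 of the fits.

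**Figure D5:**
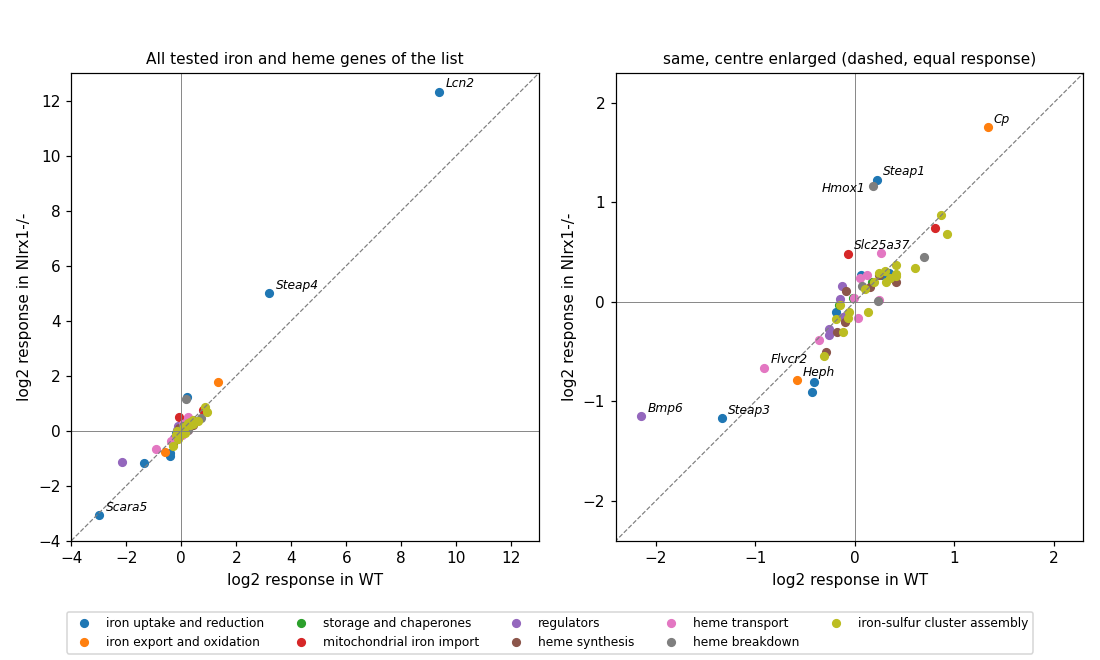
Log2 response to LPS + IFNγ in WT (x axis) against that in *Nlrx1*-/- astrocytes (y axis) for the 62 tested genes of the list, coloured by group, with the full range on the left and the centre enlarged on the right; the dashed line marks equal responses. *Lcn2* and *Steap4* lie far above the other genes (the fitted value of *Lcn2* depends on vehicle libraries at or near 0 reads, and that of *Scara5*, at the lower left, on partial counts), and *Hmox1*, *Steap1* and *Slc25a37* lie above the line, with differences that did not pass the threshold.

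Between the genotypes with LPS + IFNγ, 5 of the 62 genes were higher in *Nlrx1*-/- and 1 lower (9.68% in all, beside 2.65% of all genes higher and 2.38% lower). They were *Trf*, the transferrin gene, named here after its values were seen (1.62 higher, SE 0.43, edgeR adjusted p = 0.046), *Steap4* (1.28, SE 0.30, 0.040), *Hmox1* (0.85, SE 0.21, 0.043), *Slc25a37* (0.80, SE 0.17, 0.040) and *Abcb6* (0.80, SE 0.20, 0.045), and the lower one was *Heph* (-0.33, SE 0.08, 0.041). Each of these 6 calls held in only 2 or 3 of the 8 fits that left out 1 litter, where the number of genes called over all genes ran from 1 to 3359. With vehicle, *Trf* was already 1.72 higher in *Nlrx1*-/- by edgeR (SE 0.43, adjusted p = 0.11), and its responses differed by only -0.01 (SE 0.15). The vehicle estimate for *Abcb6* was 0.58 higher (SE 0.20, edgeR adjusted p = 0.16). *Trf* was 6.13, 6.03, 5.60 and 5.71 log2 CPM in treated WT and 7.32, 8.18, 6.31 and 7.67 in treated *Nlrx1*-/- libraries, and *Nlrx1*-/- litters 2 and 4, where it was highest, had the lowest summed oligodendrocyte markers among those of the genotype (219 and 225 CPM, against 335 and 508). These litters also had the highest treated *Nlrx1*-/- levels of *Steap4* (7.08 and 6.56 log2 CPM, against 5.89 and 5.51), *Hmox1*, *Slc25a37* and *Abcb6* and the lowest of *Heph*. Over all genes their treated libraries differed from each other by 17.4 chi-square per gene and from those of litters 1 and 3 by 52.3 to 107. The part of this split in the 6 calls was not tested beyond leaving out 1 litter at a time.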

How the data were processed

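Polyadenylated RNA of 16 libraries was quantified by the authors with Salmon 1.7.0 against GRCm39 transcripts, and per the submitters' processing notes limma 3.58.1 was used. The deposited files give, per transcript, Salmon's expected counts (not normalized, not whole numbers) and TPM, which the authors normalized per length and per library total. The deposited gene signal values are CPM that the authors scaled by length and by TMM library sizes, so their sums differ between libraries, and the deposited log2 values are, as the values show, the log2 of these CPM plus 0.0573 after a filter on low counts, which understates changes of low genes. TPM keeps no depth.

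Gene counts are sums of expected counts over the 106440 of 129698 transcripts whose accession could be paired with a symbol, which hold 96.7% to 97.3% of the reads. For the edgeR and DESeq2 fits these sums were rounded to whole numbers and used with average-length offsets. For 8 of the 9 genes present these sums were 91.5% to 107% of the reads behind the deposited CPM, and for *Aco1* 21.4% to 33.4%. Per-library levels and litter responses are deposited log2 CPM, and fold changes are from edgeR 4.0.16 (quasi-likelihood, TMM, filterByExpr at a minimum count of 10, R 4.3.3) with Benjamini-Hochberg adjustment. Responses and their difference used litters as blocks within genotype, as the vehicle and treated wells of a litter come from the same mice. Deviations of such paired wells from their group means had a Pearson r across genes of 0.07 to 0.35, against a median of -0.05 for wells of other litters. For WT against *Nlrx1*-/- the fit had the 4 conditions and no litters. DESeq2 1.42.0 and limma on the deposited values were alternatives, with other size factors, filters and offsets, counts recovered from the deposited CPM, and each litter left out. The edgeR and limma tests of the difference between the responses were tried on counts simulated from edgeR's own fit, without length offsets. The simulated differences were set in genes with high counts. This check does not cover low genes such as *Slc40a1*, the tests between genotypes or the exact tests. No pair of replicates agreed within sampling noise (at least 12.7 chi-square per gene).

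All genes of the set are named, and of the list of 71 the called genes with the largest responses, up to 3 per group, and the 5 genes most like *Flvcr1*. The set, the list and the markers were chosen with earlier results of these data known, and 1 gene of the list and 1 marker are not reported here. The planned share of IRE-bearing *Slc11a2* transcripts was replaced by a share by length. Sequences are from GENCODE M39 (GRCm39). Python 3.11.15, numpy, pandas and matplotlib were used for sums and plots.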

Additional observations from a re-analysis of the deposited data

Results flagged for a closer look

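Values that stood apart from the other 3 of their group were looked for in 54 groups of 4 libraries or litters (9 genes, 4 conditions and 2 sets of responses), of which chance alone marks about 1 in 20. *Slc40a1* stood at 1.18 log2 CPM in WT replicate 4 with LPS + IFNγ, against -0.25 to -0.09 in the other 3, and its response in that litter was -0.50, against -1.93 to -1.78. The response of *Slc11a2* in *Nlrx1*-/- litter 4 was 1.08, against 0.72 to 0.73. *Tfrc* stood at 7.38 log2 CPM in *Nlrx1*-/- replicate 4 with LPS + IFNγ, against 7.62 to 7.67, and *Fth1* at 10.5 in *Nlrx1*-/- replicate 3 with LPS + IFNγ, against 10.0 to 10.1. The response of *Aco1* in *Nlrx1*-/- litter 2 was -0.046, against 0.23 to 0.27.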

How the results depend on the processing

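The counts of 6 genes called in WT, 6 in *Nlrx1*-/-, and 0 for the difference between the responses and with LPS + IFNγ between the genotypes stayed within 1.5 times under each alternative, including no replicate block for the responses and their difference (6, 5, 0) and the replicate number as a block (0 and 0) or litter as a random effect for the genotypes, whose numbers pair no WT litter with an *Nlrx1*-/- litter. With vehicle the count ran from 0 to 1 when a litter was left out. The *Fth1* to *Ftl1* ratio changed by -0.048 to 0.034 when a litter was left out, turning positive without WT litter 1 or 3, and the *Slc11a2* share by 5.65 to 6.96 points. The cause was not tested. Among uncalled differences, leaving out a litter turned the sign of *Ftl1* for the difference between responses (-0.044 to 0.089), of *Slc11a2* with vehicle (-0.019 to 0.14), and of *Aco1* (-0.069 to 0.070), *Slc40a1* (-0.27 to 0.64), *Tfrc* (-0.058 to 0.26) and *Fth1* (-0.28 to 0.0013) with LPS + IFNγ. Over all genes, DESeq2 called 296, 735 and 2438 for the difference between the responses, vehicle and LPS + IFNγ, against 0, 0 and 808 by edgeR. With LPS + IFNγ limma called 1471, the replicate block 2206, litter as a random effect 2034, a fit of those libraries alone 1, and leaving out a litter 1 to 3359. Leaving out a litter gave 0 to 313 for the difference between responses and 0 to 1311 with vehicle. The depth limits *Slc40a1*, at 22 to 169 reads.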
